A study of Mus musculus with 14 samples.

Results

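Oxidative phosphorylation subunits were followed in the livers of 14 mice by the genes whose symbols begin with Nduf, Uqcr, Atp5 or Cox4 to Cox8, or are Sdha to Sdhd, Cycs, Sco1 or Sco2. Symbols with -ps, a mark of pseudogenes, were to be left out, and 0 were met. Ndufb4c, which GENCODE lists as a pseudogene, has no such mark and was kept among the complex I genes. The rule took 96 of the 17656 genes. These were 38 genes counted under complex I and 8 assembly factors with an Nduf name, 4 subunits of complex II, 8 of complex III and 18 of complex IV. The last were counted with Ndufa4 and Ndufa4l2, which carry a complex I name but belong to complex IV or resemble its subunit. Complex V gave 17 genes, and Cycs and the copper chaperones Sco1 and Sco2 completed the set.

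The question was how concanavalin A (ConA) and the loss of Ythdf1, a reader of the m6A mark on mRNA, changed these transcripts. ConA is a plant lectin that activates T cells and injures the liver. Wild-type (WT) mice and mice labelled Ythdf1 knockout (KO), all on C57BL/6 and, by the study's methods, male, received ConA at 8 mg/kg or saline into a vein, and whole liver was taken at 8 h. Each saline group held 3 mice and each ConA group 4. The knockout was made by CRISPR/Cas9 and is carried by every cell of the animal, so the values do not tell in which cells a genotype difference arose. The labels give no age.

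The chain lies in the inner mitochondrial membrane. Complex I takes electrons from NADH and complex II from succinate. Both pass them through ubiquinone to complex III, then through the small carrier cytochrome c to complex IV, which reduces oxygen. Complex V, the ATP synthase, uses the proton gradient built along the way. The core of complexes I, III, IV and V also holds subunits encoded in mitochondrial DNA, which are not analysed here, so every value below is a nuclear transcript. Hepatocytes are rich in mitochondria and draw on this system for urea, glucose and lipid synthesis.

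All values are in TPM (transcripts of a gene per 1000000 transcripts of the genes listed), which corrects for transcript length and carries no read count. The read depth of the libraries is therefore unknown. Each library held 9853 to 10793 genes at 1 TPM or more. Ythdf1 stood at 12.03, 13.9 and 13.3 TPM in WT saline and 20.8, 18.4 and 18.6 in KO saline livers, so its level was not lower in the latter. A gene-level TPM also counts transcript outside a deleted stretch, so these values do not settle the label. WT saline replicates 2 and 3 were the most alike of the replicate pairs. Over the 100 genes most variable among the KO saline libraries, their median absolute log2 ratio was 0.116. In the 17 other replicate pairs it was 0.244 to 1.81, with the highest values in the KO saline pairs, on which these genes were picked. Over the members it was 0.065 for WT saline replicates 2 and 3, against 0.074 to 0.333 in the other pairs. For that reason each comparison with WT saline was repeated after merging these 2 libraries into 1 by their mean. The summed TPM of 8 hepatocyte markers had a median of 114274 in WT saline and 111629 in KO saline livers, and of 72301 and 56536 after ConA. The sum of 7 neutrophil markers went from medians of 9.61 and 5.97 to 419 and 826 TPM. Alb weighed most in the hepatocyte sum, at 87030, 71987 and 71714 TPM in WT saline livers. Single markers did not all move with the sums. Hnf4a stood at 151, 163 and 164 TPM in WT saline and 239, 197, 141 and 171 in WT ConA livers. In KO livers it stood at 156, 136 and 160 and 233, 190, 169 and 170 TPM. Ly6g, a neutrophil marker, stood at 0.57, 4.85 and 5.04 TPM in WT saline and 1.64, 0.18, 0.49 and 0.88 in WT ConA livers. The part of these shifts in the changes below was not tested, and in whole liver fewer hepatocytes and less RNA per hepatocyte cannot be told apart.

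In WT saline livers the 96 genes together made up 33255 ± 430 TPM (SD, n = 3), or 3.33% of the TPM of the 17656 genes listed. The symbols of 13 mitochondrially encoded genes were not among those listed. Complex V held 10366 ± 371 TPM, complex IV 9167 ± 53.7, complex I 9091 ± 41.3, complex III 3319.7 ± 38.3 and complex II 987 ± 45.2. On this per-length scale Cox4i1, a nuclear-encoded subunit needed for complex IV assembly, was the highest member, at 1576, 1656 and 1506 TPM in the 3 mice. The assembly factors lay far lower, at 187 ± 1.15 TPM for all 8 together. Cycs, the only cytochrome c gene of the set, stood at 102, 106 and 113 TPM. Sco1, which with Sco2 delivers copper to complex IV, was at 4.09, 4.34 and 4.44 TPM.

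Isoforms of the same subunit differed widely in level. Cox4i1 was at over 1000 TPM in all saline livers, while its hypoxia and lung isoform Cox4i2 did not exceed 0.63 TPM in any library. The ubiquitous Cox6a1 stood at 888, 896 and 848 TPM in WT saline livers, against at most 0.26 TPM for the heart and muscle isoform Cox6a2 in any library. Cox8a was at 607, 629 and 652 TPM, and the muscle isoform Cox8b at no more than 0.26 TPM in any library. Cox6b1 was at 779, 753 and 799.6 TPM, and its testis isoform Cox6b2 at 1.76, 0.790 and 0.530. Among the 3 genes for the same c-ring subunit of complex V, Atp5g3 was highest, at 1007, 1211 and 1234 TPM, then Atp5g1 at 516, 476 and 474 and Atp5g2 at 211, 247 and 258. The ranges of these 3 did not overlap. Cox4i2, Cox6a2, Cox8b and Ndufb4b stayed below the filter of the tests, which asked for 1 TPM in a number of libraries equal to the size of the smaller group, and Cox6b2 passed it only where KO saline and WT saline livers were both in the fit. The other 91 members were tested in every comparison.

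The promoters of the genes were read from RefSeq windows of GRCm38.p6, each with 250 bases before and 50 after a transcript start, and 79 of the 96 members had a window. NRF1, ETS factors such as GABPA, and YY1 are known regulators of nuclear genes for mitochondrial proteins. The letters GCATGCGC, a core of the NRF1 motif, stood on either strand in 13 of the 79 members (16.5%) and in 3.05% of all 27025 genes with a window. AAGATGGC, the YY1 core, stood in 11 members (13.9%) against 3.19% of all genes, and CCGGAAGT, an ETS core, in 5 (6.33%) against 4.31%. Uqcr11 alone held 2 of the 3 words, at separate places. Matches are descriptions of letters and not of binding, and 51 of the 79 members held none of the 3. The windows below show, with the matched words in capitals, 3 genes with the NRF1 letters (Cycs, chr6:50566520-50566819, minus strand; Ndufa6, chr15:82354242-82354541, minus strand; Sdhb, chr4:140961021-140961320, plus strand). Ndufa6 and Sdhb were called lower after ConA in both genotypes, and Cycs was called in neither. The windows also show Uqcr11, which held both NRF1 and ETS letters (chr10:80406772-80407071, minus strand), Ndufa9 with the YY1 letters beside its start (chr6:126849095-126849394, minus strand), and Ndufb4 (chr16:37654319-37654618, minus strand) and Atp5b (chr10:128083057-128083356, plus strand), which held none of them. Ndufb4 and Atp5b were called in the genotype by ConA interaction below. The Atp5b call was lost under many alternatives, and the Ndufb4 call with averaging and rescaling together.
Cycs: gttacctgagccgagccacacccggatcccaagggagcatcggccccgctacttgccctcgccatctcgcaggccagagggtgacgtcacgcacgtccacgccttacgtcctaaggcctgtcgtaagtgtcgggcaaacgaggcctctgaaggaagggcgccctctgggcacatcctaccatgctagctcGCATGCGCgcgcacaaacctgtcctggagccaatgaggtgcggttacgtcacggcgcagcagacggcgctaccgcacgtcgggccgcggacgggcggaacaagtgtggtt
Ndufa6: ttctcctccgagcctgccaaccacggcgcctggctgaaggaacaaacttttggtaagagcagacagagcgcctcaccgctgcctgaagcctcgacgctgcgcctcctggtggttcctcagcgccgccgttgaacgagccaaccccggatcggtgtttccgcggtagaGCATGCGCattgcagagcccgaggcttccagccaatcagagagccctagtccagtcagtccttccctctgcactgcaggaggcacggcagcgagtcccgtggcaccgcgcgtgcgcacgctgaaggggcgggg
Sdhb: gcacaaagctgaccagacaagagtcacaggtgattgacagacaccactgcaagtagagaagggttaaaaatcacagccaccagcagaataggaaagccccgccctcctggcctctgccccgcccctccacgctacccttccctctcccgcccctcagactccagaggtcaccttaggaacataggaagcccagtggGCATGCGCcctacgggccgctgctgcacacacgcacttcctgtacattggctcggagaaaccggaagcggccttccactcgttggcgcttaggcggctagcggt
Uqcr11: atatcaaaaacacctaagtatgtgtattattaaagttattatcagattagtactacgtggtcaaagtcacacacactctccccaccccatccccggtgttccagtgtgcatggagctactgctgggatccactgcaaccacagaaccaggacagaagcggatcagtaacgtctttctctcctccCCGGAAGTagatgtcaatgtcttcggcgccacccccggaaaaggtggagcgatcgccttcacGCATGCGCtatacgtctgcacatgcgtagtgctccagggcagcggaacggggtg
Ndufa9: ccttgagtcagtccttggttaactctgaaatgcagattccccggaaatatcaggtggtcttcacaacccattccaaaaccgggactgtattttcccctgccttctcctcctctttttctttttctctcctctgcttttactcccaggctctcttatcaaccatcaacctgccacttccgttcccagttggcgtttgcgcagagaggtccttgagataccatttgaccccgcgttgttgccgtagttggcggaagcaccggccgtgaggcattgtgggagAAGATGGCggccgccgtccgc
Ndufb4: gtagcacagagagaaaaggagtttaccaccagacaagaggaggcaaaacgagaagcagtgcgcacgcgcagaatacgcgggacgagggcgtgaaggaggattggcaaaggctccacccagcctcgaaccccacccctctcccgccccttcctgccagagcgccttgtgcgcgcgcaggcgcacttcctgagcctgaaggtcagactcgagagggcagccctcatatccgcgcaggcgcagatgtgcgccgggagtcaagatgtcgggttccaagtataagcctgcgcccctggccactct
Atp5b: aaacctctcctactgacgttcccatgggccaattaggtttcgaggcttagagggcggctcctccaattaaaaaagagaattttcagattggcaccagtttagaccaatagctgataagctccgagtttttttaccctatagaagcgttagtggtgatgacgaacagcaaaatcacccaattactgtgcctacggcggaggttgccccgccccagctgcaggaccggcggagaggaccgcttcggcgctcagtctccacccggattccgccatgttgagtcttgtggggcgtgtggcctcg

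The NRF1 letters began at position -60 from the start in Cycs, -83 in Ndufa6, -54 in Sdhb and -4 in Uqcr11, and the YY1 letters at 29 in Ndufa9. Members with the NRF1 letters had a median ConA difference of -0.51 in WT livers (13 genes), against -0.63 in the 63 tested members with a window but without them. In KO livers the medians were -1.18 and -1.05. The difference between these groups of genes was not tested.

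After ConA the transcripts of the chain and the ATP synthase were lower together in WT livers. Against WT saline, 77 of the 91 tested members were lower and 1 was higher at an adjusted p under 0.05 (limma on log2(TPM + 1), Benjamini-Hochberg over all genes). Among the 10768 genes tested, 31.0% were lower and 22.0% higher. The median difference of the members was -0.62 on the log2 scale, a fold of 0.652, against -0.07 over all genes tested. With WT saline replicates 2 and 3 averaged, 64 members were lower and 1 higher, against 25.3% and 17.1% of all genes. With rescaled libraries 53 were lower and 2 higher (28.9% and 27.4% of all genes), and with rescaling and averaging together 26 were lower and 1 higher (23.6% and 21.8%), with a median of -0.50.

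In complex I 36 of 37 members were lower, with a median of -0.63. In complex III all 8 tested members were lower, in complex V 15 of 17, in complex II 3 of 4, in complex IV 9 of 14, and 5 of the 8 complex I assembly factors. The medians of complexes II, III, IV and V were -0.80, -0.62, -0.53 and -0.67. By mouse, the summed level of complex I was 9135, 9083 and 9054 TPM in the WT saline livers and 5349.7, 5426, 6509 and 5093 after ConA. Complex V went from 9999.7, 10358 and 10741 to 6559.5, 6692, 7071 and 6231 TPM. The saline and ConA ranges of these sums did not overlap. WT ConA replicate 3 was the highest of its group for complexes I, III, IV and V. It was the lowest of its group for Sdha, Ndufs1 and Atp5a1, at 69.7, 23.3 and 249 TPM. Of the 14 libraries it had the fewest genes at 1 TPM or more (9853) and the lowest median-ratio factor (0.791).

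**Figure D1:**
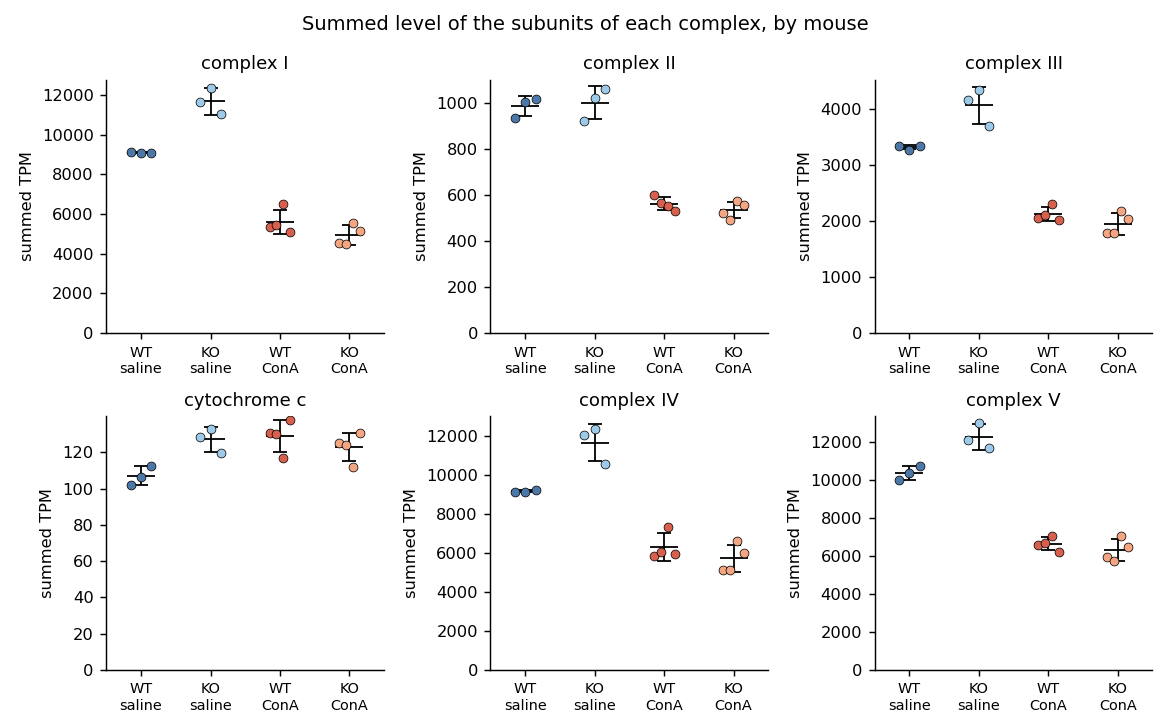
Summed TPM of the members of each complex in each mouse (points), with the group mean and SD (bars, n = 3 for saline and 4 for ConA), on axes that start at 0. In both genotypes the ConA mice lie below the saline mice for complexes I to V, and cytochrome c (Cycs) does not follow them.

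The largest falls in WT livers were in genes of different roles. Ndufaf4, a complex I assembly factor, stood at 21.2, 20.8 and 23.5 TPM in saline and 7.14, 9.60, 6.19 and 7.70 in ConA livers, a difference of -1.41 (SE 0.16, adjusted p = 8.10e-05). Ndufa6, an accessory subunit of complex I, went from 558, 534.5 and 561 to 217, 204, 244 and 195 TPM, by -1.36 (SE 0.12, adjusted p = 1.83e-05). Ndufb10, in the membrane arm of complex I, went from 492, 499.7 and 478 to 214, 189.7, 234 and 182 TPM, by -1.26 (SE 0.12, adjusted p = 3.61e-05). In none of these did a ConA mouse reach a saline mouse. Sdhb, the iron-sulfur subunit of complex II, went from 391, 402 and 388 to 198, 182, 249 and 154 TPM, by -1.03 (SE 0.16, adjusted p = 5.97e-04). Atp5o, which ties the catalytic head of complex V to its peripheral stalk, went from 475, 501 and 508 to 245, 248, 264 and 215 TPM, by -1.02 (SE 0.12, adjusted p = 8.24e-05). These ranges were separate too.

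Other subunits chosen for their roles had smaller differences than these 5. Ndufv1 and Ndufs1, core subunits on the electron path of complex I, differed by -0.48 and -0.67 with adjusted p-values of 0.0131 and 0.00715 by limma. Uqcrc1 and Uqcrfs1, the core protein and the Rieske protein of complex III, differed by -0.50 (SE 0.15, adjusted p = 0.0186) and -0.77 (SE 0.14, adjusted p = 0.0016). Cox4i1 and Cox5a of complex IV differed by -0.47 (SE 0.14, adjusted p = 0.0216) and -0.53 (SE 0.15, adjusted p = 0.0143), and Atp5a1, the alpha subunit of the complex V head, by -0.68 (SE 0.17, adjusted p = 0.00777). These 7 genes passed the threshold. With WT saline replicates 2 and 3 averaged, Ndufv1, Uqcrc1, Cox4i1 and Cox5a no longer passed it, with adjusted p-values of 0.0665, 0.0726, 0.0687 and 0.0677. Sdha, the flavoprotein of complex II, stood at 149, 159.9 and 159 TPM in saline and 133, 129, 69.7 and 113 in ConA livers, by -0.52 (SE 0.21, adjusted p = 0.0652). Atp5b, the catalytic beta subunit of the complex V head, stood at 542, 704 and 704 and 531, 604, 401 and 411 TPM, by -0.43 (SE 0.18, adjusted p = 0.0694). Neither passed the threshold. The Sdha ranges were separate, and its difference passed with rescaled libraries (adjusted p = 0.0428) or with correction for length and GC content (0.0185), while the Atp5b ranges overlapped.

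**Figure D2:**
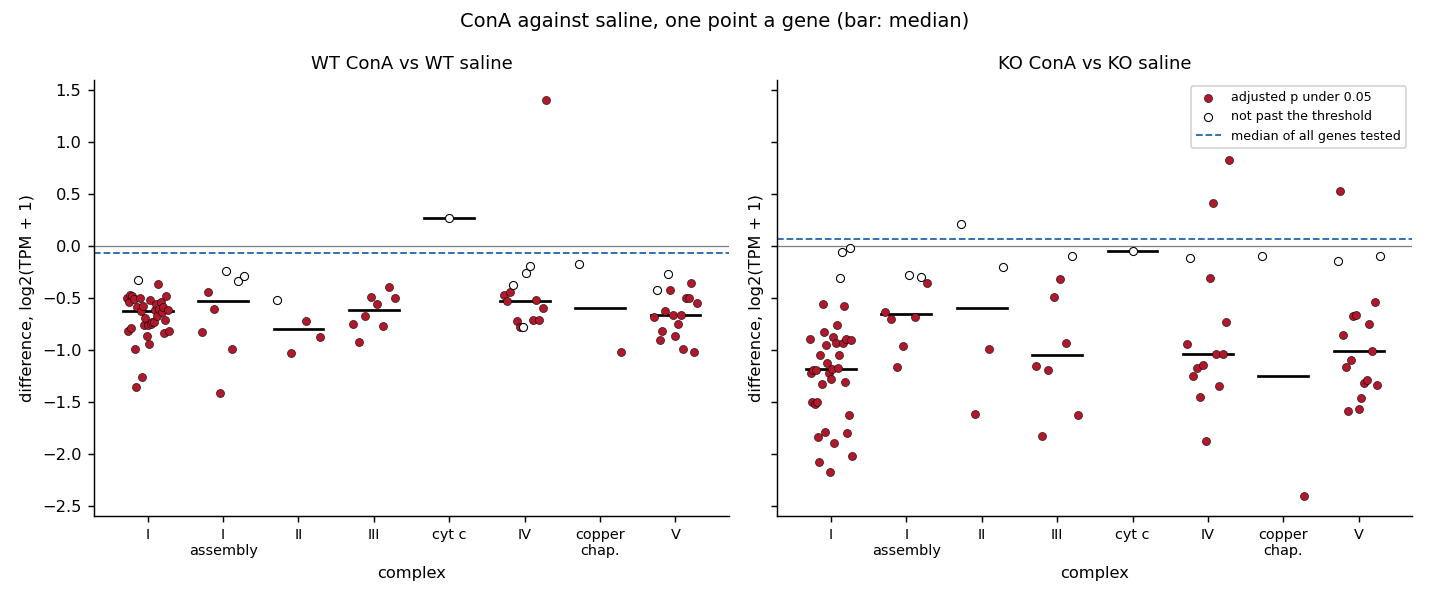
Differences on the log2(TPM + 1) scale between ConA and saline livers for each tested gene, by complex, in WT (left) and KO (right) mice; filled points passed an adjusted p of 0.05, bars are medians and the dashed line is the median of all genes tested. Nearly all points lie below the dashed line, with Ndufa4l2 the highest point of both panels.

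Among the KO mice, 75 of the 91 tested members were lower after ConA and 3 higher, where 30.7% of 10988 genes were lower and 33.9% higher. The median difference of the members was -1.04, a fold of 0.486, against 0.07 over all genes tested. The falls held 34 of 37 complex I members, 7 of 8 in complex III, 11 of 14 in complex IV, 14 of 17 in complex V, 6 of 8 assembly factors and 2 of 4 in complex II. The medians of complexes I to V were -1.18, -0.60, -1.05, -1.04 and -1.01. By mouse, complex I summed to 11636, 12362 and 11011 TPM in KO saline and 4544, 4484, 5538 and 5116 in KO ConA livers, with no overlap. Complex IV summed to 12047, 12368 and 10568 and 5135, 5144, 6597 and 5978 TPM, again without overlap. Of the members lower in a genotype, 69 were lower in both, out of 77 in WT and 75 in KO. The share of all genes lower in both was not counted.

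The largest falls in KO livers were in Sco2, described further on, and in complex I. Ndufb4, an accessory subunit in the membrane arm of complex I, went from 529.7, 544 and 416 TPM in KO saline to 109.5, 108, 107 and 109 in KO ConA livers, by -2.18 (SE 0.12, adjusted p = 1.07e-07). Ndufa6 went from 733, 795 and 670.4 to 150.4, 155, 195 and 194 TPM, by -2.08 (SE 0.13, adjusted p = 3.15e-07). Ndufv3, a small subunit of the NADH-oxidising module, went from 406, 380.1 and 303 to 75.2, 81.7, 116 and 85.5 TPM, by -2.02 (SE 0.16, adjusted p = 1.73e-06). In each gene all 4 ConA mice were below the lowest saline mouse. Ndufb7 went from 687, 695 and 512 to 155, 142, 195 and 181 TPM, by -1.90 (SE 0.15, adjusted p = 1.52e-06). Sdhb went from 465, 514 and 454.5 to 149.7, 139, 185 and 153 TPM, by -1.61 (SE 0.12, adjusted p = 1.12e-06). Of the 50-base stretches of Ndufb4, 63.0% were found in no other gene and most of the rest in Ndufb4c, so how reads were divided between the pair is uncertain.

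Several members called in WT livers were not called in KO livers. Ndufv1 differed by -0.02 (SE 0.14, adjusted p = 0.892), Cox5a by -0.12 (SE 0.13, adjusted p = 0.461) and Atp5a1 by -0.15 (SE 0.13, adjusted p = 0.351). Ndufs1 differed by -0.31 (SE 0.13, adjusted p = 0.058), although its ranges of 38.1, 42.5 and 50.9 TPM in saline and 36.5, 36.4, 31.4 and 35.7 in ConA livers were separate. Sdha, called in neither genotype, stood at 106, 100.2 and 159.7 and 138, 139, 133 and 145 TPM and differed by 0.21 (SE 0.16, adjusted p = 0.25). Sdhd, Uqcrh and Atp5pb, named here after their values were seen, were also lower in WT but not called in KO mice. For none of the 8 members called lower in WT alone did the test of the difference between the genotypes pass the threshold, with Ndufv1 at an adjusted p of 0.154 and Atp5a1 at 0.147 in the interaction.

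A few members rose or were not called after ConA. Ndufa4l2, a hypoxia-induced relative of Ndufa4, stood at 4.50, 2.98 and 3.11 TPM in WT saline and 8.04, 7.96, 15.6 and 13.7 in WT ConA livers, a rise of 1.40 (SE 0.25, adjusted p = 0.00138). In KO livers it went from 5.93, 6.20 and 4.45 to 9.53, 14.1, 9.18 and 9.71 TPM, a rise of 0.82 (SE 0.18, adjusted p = 0.00238). All ConA mice were above all saline mice of their genotype, while its relative Ndufa4 fell by 0.59 in WT and 0.73 in KO livers on the log2 scale, from over 1000 TPM. Ndufa4l2 overlaps Shmt2, a gene of the other strand, and the strand setting of the counting is not given in the sources used here. The other called rises were in KO livers. Cox7a2l, an assembly factor of supercomplexes of the chain, went from 67.0, 69.5 and 99.2 to 100.5, 100.7, 105 and 105 TPM, by 0.41 (SE 0.14, adjusted p = 0.0268). Atp5b went from 397.5, 430.2 and 639 to 721, 617, 724 and 689.6 TPM, by 0.52 (SE 0.16, adjusted p = 0.0152), and its ranges overlapped through KO saline replicate 3. With the libraries rescaled by their median ratio, Cox7a2l and Atp5b lost their calls (adjusted p = 0.0946 and 0.07), and without KO saline replicate 1 or replicate 2 a single member was called higher. Over all genes 3303 of 11207 and 3209 of 11241 were then higher.

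Cycs was not called in either genotype. It stood at 102, 106 and 113 TPM in WT saline and 131, 130.3, 117 and 138 in WT ConA livers, a difference of 0.27 (SE 0.11, adjusted p = 0.0766) with separate ranges. In KO livers it stood at 129, 133 and 119.9 and 125, 124, 112 and 131 TPM, a difference of -0.05 (SE 0.11, adjusted p = 0.697) whose 95% interval ran from -0.28 to 0.19. The WT difference passed the threshold when the libraries were rescaled or when all 14 entered the fit, and the KO difference, at -0.34, passed it as a fall after correction for length and GC content. Cyc1, the cytochrome of complex III that hands electrons to cytochrome c and is not covered by the rule, fell by 0.75 in WT and 0.66 in KO livers on the log2 scale. Of the 50-base stretches of Cycs, 71.5% were found in no other gene. Sco1 lay under 5 TPM in all libraries, with differences of -0.18 (SE 0.15, adjusted p = 0.349) and -0.10 (SE 0.17, adjusted p = 0.621).

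**Figure D3:**
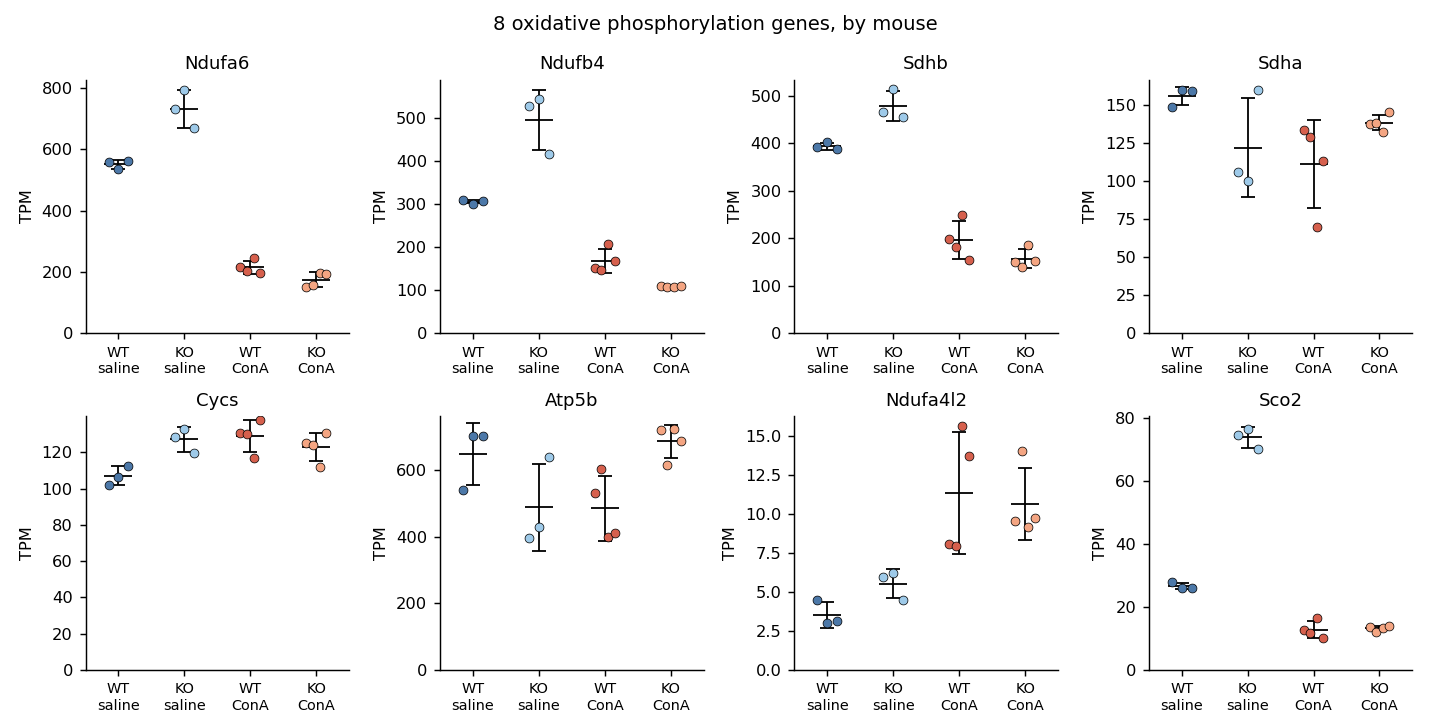
TPM of 8 genes in each mouse (points) with the group mean and SD (bars, n = 3 or 4), each on its own axis from 0. Ndufa6, Ndufb4, Sdhb and Sco2 lie lower in all ConA mice than in all saline mice, Cycs does not lie lower, Sdha overlaps between KO saline and KO ConA, and Ndufa4l2 lies higher after ConA in both genotypes.

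Between the saline livers, a share of the members, most of them in complex I, was higher in the mice labelled KO. Against WT saline, 29 of 92 tested members were higher and 1 lower, where 6.30% of 10459 genes were higher and 12.9% lower. Over all genes these were 659 higher and 1350 lower calls, and 742 and 770 with rescaled libraries. The median difference of the members was 0.23, against -0.10 over all genes. All members together summed to 32872, 33174 and 33719.9 TPM in WT and 41273, 43488 and 38417 in KO mice, without overlap. The number of calls changed when single libraries were averaged or left out. With replicates 2 and 3 averaged, 1 member was higher and 0 lower, against 0.296% and 0.229% of all genes, and the median stayed at 0.24. At an unadjusted p under 0.05 by limma, with all 3 WT saline libraries, the count was 51, against 38.8% of all genes. Higher calls numbered 1 without WT saline replicate 2 or replicate 3, 4 without KO saline replicate 1, 9 without KO saline replicate 2 and 39 without KO saline replicate 3, where 8 members were lower. Over all genes, in the same order, 29 of 10686, 28 of 10664, 112 of 10577, 297 of 10663 and 690 of 10586 were higher. In the last of these 2049 genes were lower.

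Summed markers of other liver cells went in different directions between the saline groups, and no test was run on them. The summed TPM of 5 stellate cell markers spanned 15.1 to 59.7 in WT saline and 54.1 to 94.0 in KO saline livers. These ranges overlapped, and Dcn made up 52.9 TPM of the 59.7. The sum of 5 sinusoidal endothelial markers spanned 12.8 to 21.0 and 21.4 to 36.9. The sum of 7 Kupffer cell markers went the other way, from 86.4 to 145.4 in WT saline and 39.4 to 89.0 in KO saline livers, with overlap. The part of these markers in the member differences was not tested.

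By complex, 16 of 37 complex I members were higher, 5 of 17 in complex V, 4 of 15 in complex IV, 2 of 8 in complex III and 0 of 4 in complex II. Ndufb7 stood at 378, 388 and 325.5 TPM in WT and 687, 695 and 512 in KO saline livers, by 0.78 (SE 0.14, adjusted p = 0.0193). Uqcrq, a small subunit of complex III, stood at 389.6, 337 and 343 and 679.6, 714 and 463 TPM, by 0.77 (SE 0.17, adjusted p = 0.0273). Ndufv3 stood at 237, 203 and 214 and 406, 380.1 and 303 TPM, by 0.73 (SE 0.13, adjusted p = 0.0187). In these 3 genes KO saline replicate 3 was the KO mouse nearest to WT. Cox7a1, the heart and muscle isoform, stood at 8.39, 2.77 and 7.61 and 17.8, 13.7 and 14.9 TPM, by 1.28 (SE 0.32, adjusted p = 0.0366), at a low level. Muscle markers summed to at most 0.23 TPM in any saline library. Ndufaf4 was the called fall, from 21.2, 20.8 and 23.5 to 18.2, 15.7 and 14.7 TPM, by -0.41 (SE 0.10, adjusted p = 0.0354). With the averaged pair the adjusted p-values of Ndufb7, Uqcrq, Ndufv3, Cox7a1 and Ndufaf4 were 0.0826, 0.111, 0.0865, 0.0789 and 0.12.

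Sco2 was the member that stayed called. It stood at 27.8, 26.1 and 25.9 TPM in WT saline and 74.8, 76.7 and 70.3 in KO saline livers, a rise of 1.44 (SE 0.08, adjusted p = 2.61e-04), with an adjusted p of 0.00387 once the pair was averaged. After ConA it stood at 12.7, 11.7, 16.6 and 10.2 TPM in WT and 13.5, 12.04, 13.3 and 13.9 in KO livers, so that it fell by 1.02 in WT and fell by 2.40 in KO livers on the log2 scale. The genotypes were far apart in saline and overlapped after ConA. Its value is uncertain, because 12.3% of its 50-base stretches were found in no other gene, with the rest shared with Tymp on the same strand and Ncaph2 on the other. Tymp, which breaks down thymidine, was also higher in KO saline and lower after ConA, at 19.2, 19.97 and 16.04 TPM in WT saline, 35.8, 41.0 and 57.6 in KO saline, 6.56, 4.90, 5.56 and 2.86 in WT ConA and 8.60, 8.51, 13.7 and 13.6 in KO ConA livers. Its own interaction was -0.19 (SE 0.34, adjusted p = 0.743). Ncaph2, a condensin subunit, was at 26.4, 27.4 and 26.4 TPM in WT saline, 18.9, 21.2 and 26.8 in KO saline, 24.4, 28.03, 27.4 and 22.6 in WT ConA and 29.7, 26.0, 28.9 and 28.6 in KO ConA livers, and was called in none of the comparisons. Reads of the overlapping genes cannot be told apart where they share sequence.

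**Figure D4:**
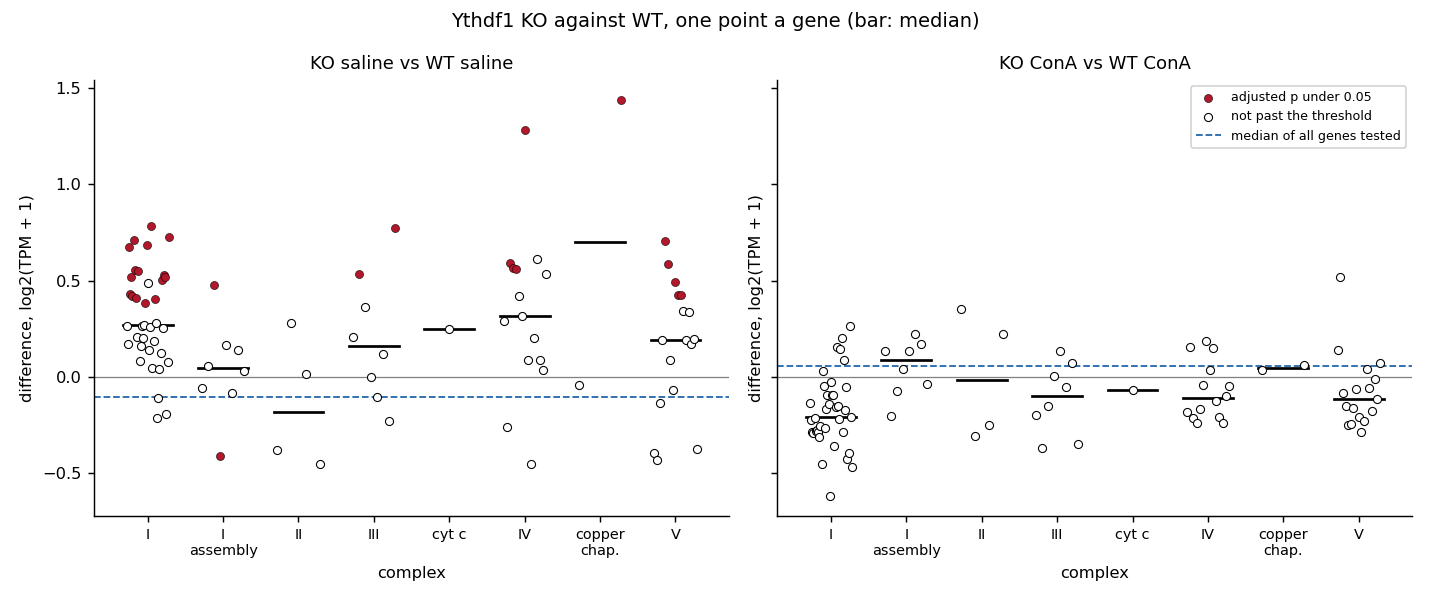
Differences on the log2(TPM + 1) scale between KO and WT livers for each tested gene, by complex, in saline (left) and ConA (right) mice; filled points passed an adjusted p of 0.05, bars are medians and the dashed line is the median of all genes tested. In saline mice most points lie above the dashed line, and in ConA mice no point is filled.

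After ConA no member passed the test between the genotypes. KO ConA against WT ConA gave 0 higher and 0 lower among 91 tested members by limma, where 0.342% of 10519 genes were higher and 0.0856% lower, and 11 members had an unadjusted p under 0.05, against 16.7% of all genes. Over all genes the 36 higher and 9 lower calls became 12 and 13 with rescaled libraries. The groups did not overlap in 2 members that were higher in KO and 7 that were lower, against 6.37% and 4.11% of all genes. The median difference was -0.14, against 0.05 over all genes. Ndufb4 came nearest, at 151, 147, 208 and 167 TPM in WT and 109.5, 108, 107 and 109 in KO ConA livers, by -0.62 (SE 0.13, adjusted p = 0.0667), and it passed with all 14 libraries in the fit. Atp5b was higher in each KO ConA mouse than in any WT ConA mouse, by 0.52 (SE 0.15, adjusted p = 0.126). The 95% intervals of the difference left room for changes of some size, from -0.61 to -0.01 for Ndufa6, -0.06 to 0.77 for Sdha, -0.51 to 0.14 for Cox4i1 and -0.32 to 0.18 for Cycs.

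The interaction asked whether the ConA difference itself varied by genotype. It draws on the same libraries as the comparisons above and is no separate evidence. Of 92 tested members, 17 had a more negative ConA difference in KO mice and 1 a more positive one, where 2.14% and 2.64% of 11327 genes did so. The median was -0.36, against 0.14 over all genes. Of the 17, 12 were complex I members, 3 were in complex V, 1 in complex III and 1 was Sco2. With WT saline replicates 2 and 3 averaged, 2 members were lower and 0 higher, against 0.0795% and 0.168% of all genes. These were Ndufb4 and Sco2, while rescaling alone gave 2 lower and 0 higher (1.65% and 2.52% of all genes). With averaging and rescaling together 0 were lower and 0 higher, against 0.0177% and 0.0441% of all genes. With all libraries, 52 members had an unadjusted p under 0.05 by limma, against 25.3% of all genes. The lower calls numbered 2 without WT saline replicate 2 or 3 or KO saline replicate 1 or 2, 3 without KO ConA replicate 4, 4 without KO ConA replicate 2, 11 without KO ConA replicate 1 and 28 without KO ConA replicate 3. Over all genes, in the same order, the lower calls were 9, 7, 11, 26, 31, 75, 180 and 287, of 11266 to 11538 tested.

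Ndufb4 had an interaction of -1.31 (SE 0.18, adjusted p = 0.00387), and an adjusted p of 0.0213 with the averaged pair. With averaging and rescaling together Ndufb4 did not pass. Its 4 WT ConA and 3 WT saline values were 151, 147, 208 and 167 against 309, 301 and 308 TPM, so it fell in both genotypes and further in KO. Ndufv3, Ndufb7 and Uqcrq had interactions of -1.20 (SE 0.26, adjusted p = 0.0281), -1.14 (SE 0.26, adjusted p = 0.0332) and -1.12 (SE 0.25, adjusted p = 0.0319), each above an adjusted p of 0.05 with the averaged pair. Their KO saline values were above WT saline, and their ConA values overlapped between the genotypes. Atp5b had an interaction of 0.95 (SE 0.25, adjusted p = 0.0462), with lower means after ConA in WT and higher ones in KO mice. Its adjusted p was 0.131 with the averaged pair, and the call was lost without WT saline replicate 2 or 3, KO saline replicate 1 or 2, WT ConA replicate 3 or 4, or any KO ConA replicate.

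Transcript length and GC content moved with the genotype differences, and many members are short. The members had a median transcript length of 809.5 bases (94 of 96 had a length in the GENCODE annotation of GRCm38), against 2726 over all genes of the tables. Across the 91 tested members with a length, the KO saline against WT saline difference had a Spearman correlation of -0.464 with length and 0.399 with GC content. Across all 10329 genes with a length the correlations were -0.253 and 0.369. Genes share libraries and are not independent, so these are descriptions. In saline livers, the 54 members under 1000 bases had a median KO minus WT difference of 0.35, against 0.20 in all genes of that length. The 10 members of 2000 bases or more had -0.01, against -0.15. After each library was corrected for length and GC content, 7 members were higher and 1 lower, against 2.79% and 6.88% of all genes, and the member median was 0.020. Of the 29 members higher without the correction, 6 were among the 7, Ndufb4, Uqcrq and Sco2 included. The medians of complexes III, IV and V and of the assembly factors then lay below 0.

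The ConA difference in WT livers had a Spearman correlation with length of 0.069 over 90 members. Its member medians were -0.62 under 1000 bases, -0.61 from 1000 to under 2000 and -0.65 at 2000 or more, against -0.28, -0.15 and -0.03 for all genes. After the correction for length and GC content 77 members were lower, against 33.8% of all genes. In KO livers the correlation was 0.400, and the medians were -1.18, -0.68 and -0.57, against -0.58, -0.13 and 0.18 for all genes. With the correction 72 members were lower there, against 31.3% of all genes, with a median of -0.79. For the interaction the correction left 8 members lower and 1 higher, against 0.958% and 2.88% of all genes, and a member median of -0.088. The part of length and GC content in the genotype differences was not tested further.

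**Figure D5:**
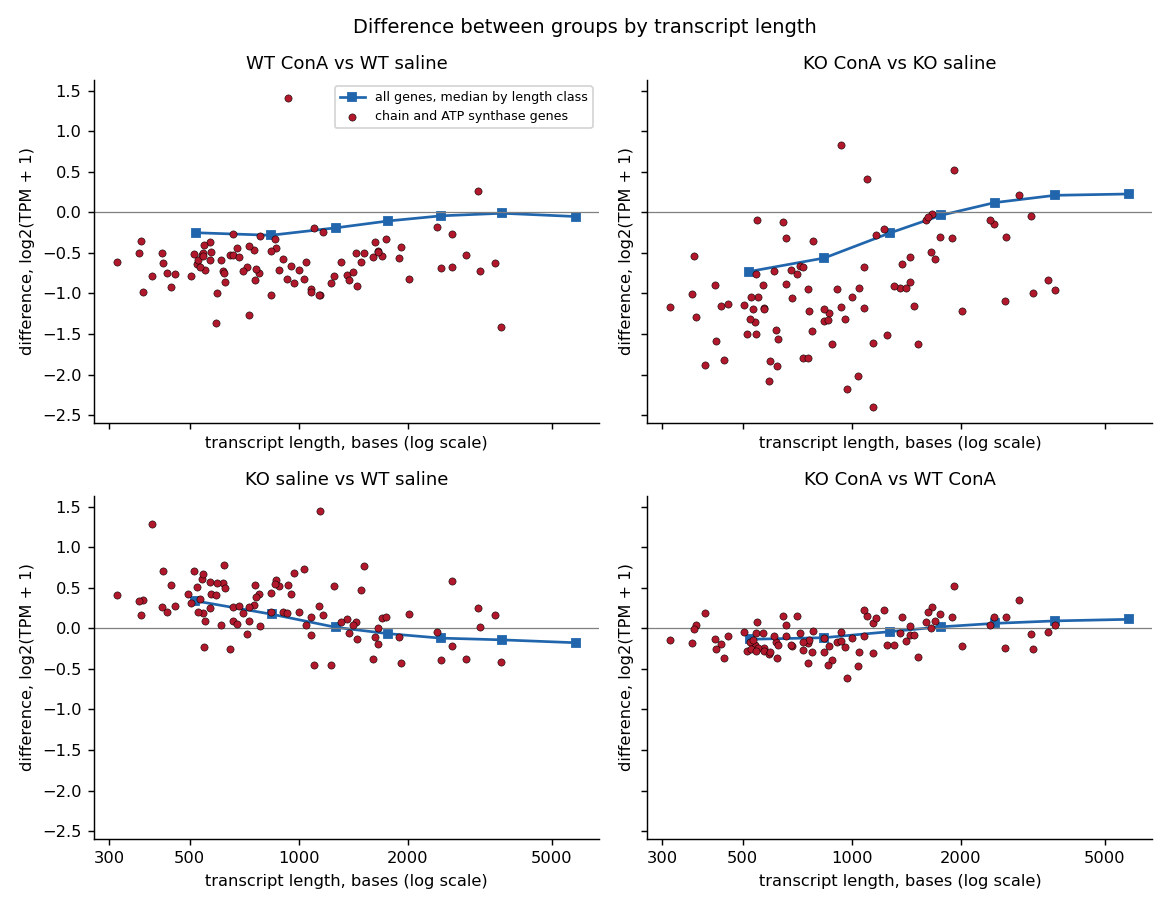
Difference on the log2(TPM + 1) scale against transcript length (log axis) for the tested members (points) and the median of all genes by length class (squares), in 4 comparisons. In WT ConA against WT saline most points lie below the line at all lengths, while in KO ConA against KO saline, and in KO saline against WT saline, the short members lie farther from 0 than the long ones.

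Related genes outside the rule, were counted on lists chosen with earlier results known, beside 31.0% lower and 22.0% higher over all genes in WT and 30.7% and 33.9% in KO livers. Of 34 assembly factors, 22 were lower and 2 higher in WT livers (median -0.67), and 20 of 33 lower and 2 higher in KO livers (median -0.65). Of 17 genes of the tricarboxylic acid cycle and pyruvate dehydrogenase, 14 were lower and 1 higher in WT, and 11 lower and 2 higher in KO livers. Dlat, a subunit of pyruvate dehydrogenase, fell by 1.72 in WT and 1.20 in KO livers on the log2 scale, and Fh1, the fumarase, rose by 0.41 and 0.59. Dlat and Fh1 were chosen after their values were seen, as were Coq8a and Coq8b. Of 13 ubiquinone synthesis genes 6 were lower and 2 higher in each genotype, with Coq8a at -3.49 and -3.91 and its paralog Coq8b at 2.82 and 3.48. Of 7 tested carriers and uncouplers 3 were lower in each genotype. Of 6 other genes in or feeding the chain, Cyc1 of complex III included, 5 were lower in WT, and 4 lower and 1 higher in KO livers.

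Regulators of these genes were counted in the same way. Of 13 tested genes for transcription control, 6 were lower and 4 higher in WT livers, and of 14 in KO livers 5 were lower and 4 higher, which is near the shares over all genes in KO livers. Esrra, a nuclear receptor that drives respiratory genes, stood at 24.1, 24.6 and 23.9 TPM in WT saline and 8.30, 7.91, 8.95 and 6.37 in WT ConA livers, by -1.51 (SE 0.14, adjusted p = 2.81e-05). In KO livers it stood at 25.3, 28.6 and 20.6 and 8.23, 6.89, 5.73 and 6.17 TPM, by -1.73 (SE 0.17, adjusted p = 5.88e-06). All ConA mice were below all saline mice. Ppargc1a and Ppargc1b, coactivators of mitochondrial genes, fell by 1.08 and 1.49 in WT livers, from 1.85, 2.29 and 2.73 and from 2.61, 1.75 and 1.92 TPM in saline. After ConA they stood at 0.46, 1.28, 0.14 and 0.50 and at 0.15, 0.10, 0.07 and 0.06 TPM. In KO livers Ppargc1b fell by 1.15, to 0.16, 0.08, 0.03 and 0.09 TPM, and Ppargc1a differed by -0.41 (SE 0.19, adjusted p = 0.0825). Ppargc1b in both genotypes, and Ppargc1a in WT livers, passed the filter of 1 TPM only through saline livers, so these falls are descriptions. At such levels the added 1 TPM makes differences smaller. Pprc1, on the same list, stood at 2.08, 2.19 and 2.04 TPM in WT saline and 8.04, 7.89, 6.06 and 6.95 in WT ConA livers. Nrf1, the factor that binds the NRF1 motif, rose, at 4.15, 3.81 and 4.26 TPM in WT saline and 7.14, 7.42, 5.11 and 6.37 in WT ConA livers, by 0.56 (SE 0.15, adjusted p = 0.0131). Its KO values were 2.63, 2.43 and 3.42 and 9.59, 9.24, 6.30 and 8.95 TPM, by 1.31 (SE 0.18, adjusted p = 8.90e-05). Tfam, which packs and transcribes mitochondrial DNA, differed by -0.86 (SE 0.20, adjusted p = 0.00517) in WT and -0.30 (SE 0.17, adjusted p = 0.14) in KO livers, and Gabpa by -0.38 (SE 0.28, adjusted p = 0.289) and 0.40 (SE 0.21, adjusted p = 0.121).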

How the data were processed

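Whole livers of 14 mice were profiled by RNA sequencing on the BGISEQ platform, as 1 table per mouse. The deposited values are TPM computed by the authors; the submitters' processing notes name Bowtie2, RSEM (1.3.1) and GRCm38.p6, whereas the study's methods name another aligner and counter, so the exact route is not settled here. TPM keep no read depth, so no counting error can be given. How the mice were batched is not given in the sources used here.

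Log2(TPM + 1) values were compared with limma (3.58.1, trended empirical Bayes, R 4.3.3) within the groups of each of 5 comparisons, and over all 14 libraries for the interaction. Genes needed 1 TPM in as many libraries as the smaller group, or smallest group, has. P-values were adjusted by Benjamini-Hochberg over all genes tested, and an adjusted p under 0.05 counted as a call. The script was tested on simulated data. P-values measure the spread between the mice.

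Members and lists were chosen with earlier results of these data known. Genes named are fixed catalytic subunits, isoform groups, regulators, and per comparison the 5 largest called rises and falls without overlap. Alternatives were a pseudocount of 0.1, a filter of 5 TPM or none, rescaling by median ratios, all 14 libraries in the fit, a replicate block, leaving out each library, and averaging WT saline replicates 2 and 3. A correction for transcript length and GC content (natural splines) and its combinations were chosen after seeing the data. Transcript lengths and sequence shared in 50-base stretches came from GENCODE transcripts, promoters from RefSeq. 1 member is counted but not reported by name here.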

Additional observations from a re-analysis of the deposited data

Results flagged for a closer look

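In 84 groups of 4 ConA mice, 5 held a mouse far from the other 3 by Dixon's criterion, which chance gives in about 1 of 20 groups. WT ConA replicate 3 had the highest complex IV sum, 7336 TPM against 5856 to 6051 in the others, and the highest Cox4i1 (1448 TPM, others 1028 to 1086) and Cox6b1 (589.6 TPM, others 433 to 442). The same library had the lowest median-ratio factor (0.791) and the fewest genes at 1 TPM or more (9853) of the 14. KO ConA replicate 3 had the lowest Ndufs1, at 31.4 TPM against 35.7 to 36.5. KO ConA replicate 2 had the highest Ndufa4l2, at 14.1 TPM against 9.18 to 9.71.

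The ConA difference varied with genotype in 6 named genes by the interaction test in limma: Sco2 (-1.38), Ndufb4 (-1.31), Ndufv3 (-1.20), Ndufb7 (-1.14) and Uqcrq (-1.12) had a deeper fall in KO mice, and Atp5b (0.95) a higher value after ConA in KO but not in WT mice. After averaging of WT saline replicates 2 and 3, Sco2 and Ndufb4 passed the threshold and the other 4 did not. With the libraries rescaled as well, none of the 6 passed.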

How the results depend on the processing

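The median of all members after ConA stayed below 0 in both genotypes under every alternative tried. In WT mice 63 to 85 members were lower and 1 to 2 higher when each library was left out, with medians of -0.65 to -0.60. Over all genes 2717 to 3609 were then lower and 1867 to 3439 higher, of 10574 to 10993 tested. The higher count was 2 with rescaled libraries or all 14 libraries in the fit, against 2948 and 2528 of 10768 over all genes. With rescaled libraries 53 members were lower, with a median of -0.52. With rescaled libraries and WT saline replicates 2 and 3 averaged, 26 members were lower and the median was -0.50. In KO mice 72 to 76 were lower and 1 to 4 higher without single libraries, with medians of -1.10 to -0.98. Over all genes 3017 to 3491 were then lower and 3209 to 4440 higher, of 10779 to 11241 tested. The higher count was 1 with rescaled libraries, against 3944 of 10988 over all genes, and the median was -0.79 after the length and GC correction.

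In saline mice, higher calls numbered 18 without a filter, 9 with all 14 libraries in the fit, 7 after the length and GC correction, and 1 with WT saline replicates 2 and 3 averaged, alone or with rescaling or that correction. They ranged from 1 to 39, and lower calls from 0 to 8, without single libraries, with medians of 0.20 to 0.26. Over all genes, 387 of 16841 were higher without a filter and 200 of 10459 with all 14 libraries. With the averaged pair 48 of 10459 were higher rescaled and 11 of 10330 corrected. Without single libraries, 28 to 843 were higher and 17 to 2049 lower, of 10577 to 10686 tested. Lower calls numbered 2 with the filter at 5 TPM and 0 without a filter, with rescaled libraries, with all 14 libraries, and with the averaged pair, alone, rescaled or corrected. Over all genes 1178 of 6972 were lower at 5 TPM and 571 of 16841 without a filter. Rescaled and with all 14 libraries, 770 and 132 of 10459 were lower. With the averaged pair 24 of 10459 were lower alone, 22 of 10459 rescaled and 17 of 10330 corrected. The median was 0.29 rescaled, 0.020 corrected, 0.31 rescaled and averaged, and 0.034 corrected and averaged. Complex medians turned below 0 after correction, and after correction with averaging: complex I assembly -0.077 and -0.0875 (-0.055 to 0.14 without single libraries, the lowest without KO saline replicate 3), complex III -0.055 and -0.049, complex IV -0.031 and -0.024, complex V -0.13 and -0.11. Cox8a turned to -0.46. In KO ConA against KO saline, Cox7a2 turned to 0.057 after correction.

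KO ConA against WT ConA gave 0 higher and 0 lower without each single library, with medians of -0.18 to -0.08, and 1 lower with all 14 libraries. Over all genes 4 to 44 were higher and 1 to 8 lower without single libraries, and 224 of 10519 lower with all 14. For the interaction, higher calls were 0 with a pseudocount of 0.1, no filter, rescaling, the averaged pair, and the averaged pair with rescaling or correction, and 0 to 2 without single libraries. Lower calls were 2 rescaled, 8 corrected, 2 averaged, 0 averaged and rescaled, 2 averaged and corrected, and 2 to 28 without single libraries. Over all genes 15 to 482 were higher and 7 to 372 lower without single libraries. With a pseudocount of 0.1, 234 of 11327 were higher, and without a filter 166 of 17649. Averaged and corrected, 26 were higher and 8 lower of 11165. The median was -0.50 rescaled, -0.088 corrected, -0.51 rescaled and averaged, -0.10 corrected and averaged, and -0.41 to -0.32 without single libraries. Rescaling moved the median interaction of all genes from 0.14 to 0.029. The complex V median turned to 0.052 after correction and 0.048 with averaging as well. The causes were not tested.

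Whether replicate numbers pair the mice is not settled. Same-numbered mice had correlations of deviations from -0.189 to 0.405 (median 0.041), and other pairs from -0.378 to 0.272 (median -0.007). The highest values were in same-numbered mice, WT ConA with KO ConA replicate 3 (0.405) and WT saline with KO saline replicate 1 (0.342). With the replicate number as a block, 5 members were lower in KO saline against WT saline, and the interaction had 11 lower and 0 higher. Over all genes 1592 of 10459 were lower in the former, and 160 lower and 198 higher of 11327 in the latter.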
